A study of Mus musculus with 8 samples.

Results

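Heat shock proteins and DnaJ proteins are molecular chaperones, taken here as every gene of the deposited table whose symbol begins with Hsp and a digit or a letter from a to h, or with Dnaj. The heparan sulfate proteoglycan gene Hspg2 was left out, which gave 69 of the 18770 genes listed. RNA was sequenced from dermis with hair follicles of the dorsal skin, after the epidermis between the follicles had been removed, to compare skin treated with alpinetin, a plant flavonoid, with skin treated with its solvent. All mice were wildtype animals labelled C57BL/6 and 7 to 8 weeks old, whose dorsal hair had been depilated, and skin was taken on day 4 after depilation. The vehicle group (VC) had 4 libraries, from mice that received 20 µl of 65% ethanol on the skin once a day, starting 24 h after depilation. The alpinetin group (AP) had 4 libraries, from mice that received 20 µl of alpinetin at 3 mg/ml in 65% ethanol on the same schedule. Library names (VC.1, AP.1 and so on) follow the columns of the table, values are always given in column order, and because the labels use another numbering for the mice, the animal behind each column is unknown. Between 6454563 and 7264151 reads per library fell on the listed genes in the VC group and between 8507783 and 11190113 in the AP group. Transcripts of the mitochondrial genome (13 genes) made up 48.4% ± 5.81 (SD, n = 4) of all VC reads but 8.66% ± 2.63 (SD, n = 4) of all AP reads, so the reads left for all other genes ranged from 3080758 to 3762217 in VC and from 7561598 to 10594787 in AP. A count of 3 reads, taken as the floor, was worth 4.10 to 5.63 normalized counts in VC libraries and 1.49 to 2.18 in AP libraries, and such limits cover counting error only.

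Chaperones bind unfolded stretches of other proteins and help them fold, assemble or cross membranes. HSP70 proteins do this in cycles of ATP hydrolysis that J-domain proteins start and nucleotide exchange factors end, HSP90 proteins act later on partly folded clients, and small heat shock proteins hold unfolding proteins without ATP. Heat and other protein damage induce some cytosolic members through the transcription factor Hsf1, the unfolded protein response induces members of the endoplasmic reticulum, and mitochondria have their own set for imported proteins. The skin meets heat, abrasion and ultraviolet light, and its keratinocytes, fibroblasts and muscle fibres each carry many of these chaperones.

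Few of the chaperones separated treated from vehicle skin. Of the 69 genes, 67 reached 3 normalized counts in 4 or more of the 8 libraries and were tested, and 1 of them (Dnajc13) was higher in AP and 1 (Hspe1) lower at an adjusted p under 0.05 (limma, adjusted over all 15964 genes tested). Among all genes tested, 6.33% were higher and 4.0% lower by the same rule. At an unadjusted p under 0.05, 5 members were higher and 7 lower, beside 2720 and 2120 of all genes tested. On the recovered reads edgeR and limma-voom called Dnajc13 and Hspe1 as well, and DESeq2 called these and Dnajc3, so the classes without these genes had 0 calls by any of the tools. Without overlap between the groups, 2 members were higher in AP (10.3% of all genes tested) and 4 were lower (8.91% of all genes tested). The median log2 fold change (AP over VC, on the scale of log2 of the normalized count plus 1) was -0.06 over the members, with 29 above 0 and 38 below, and 0.06 over all genes tested. Together the 67 genes held 1.10% to 1.70% of the reads outside the mitochondrially encoded genes in the VC libraries and 1.05% to 1.64% in the AP libraries. When libraries were scaled by total counts in place of the deposited size factors, the median of all genes shifted by 0.84 on the log2 scale, 38 members were higher and 0 lower, and the median of the members became 0.81, with 36 of the 38 members below 0 turning above it (all but Hspb6 and Hspb7). Total counts without the mitochondrially encoded genes shifted the median of all genes by 0.039 and gave 1 member higher, 1 lower and a member median of -0.02, and TMM and upper-quartile factors also gave 1 and 1. Every direction given here is relative to the bulk of the genes, and total counts below means those with the mitochondrial reads included. In bulk tissue, fewer cells of a type and less RNA per cell cannot be told apart.

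**Figure D1:**
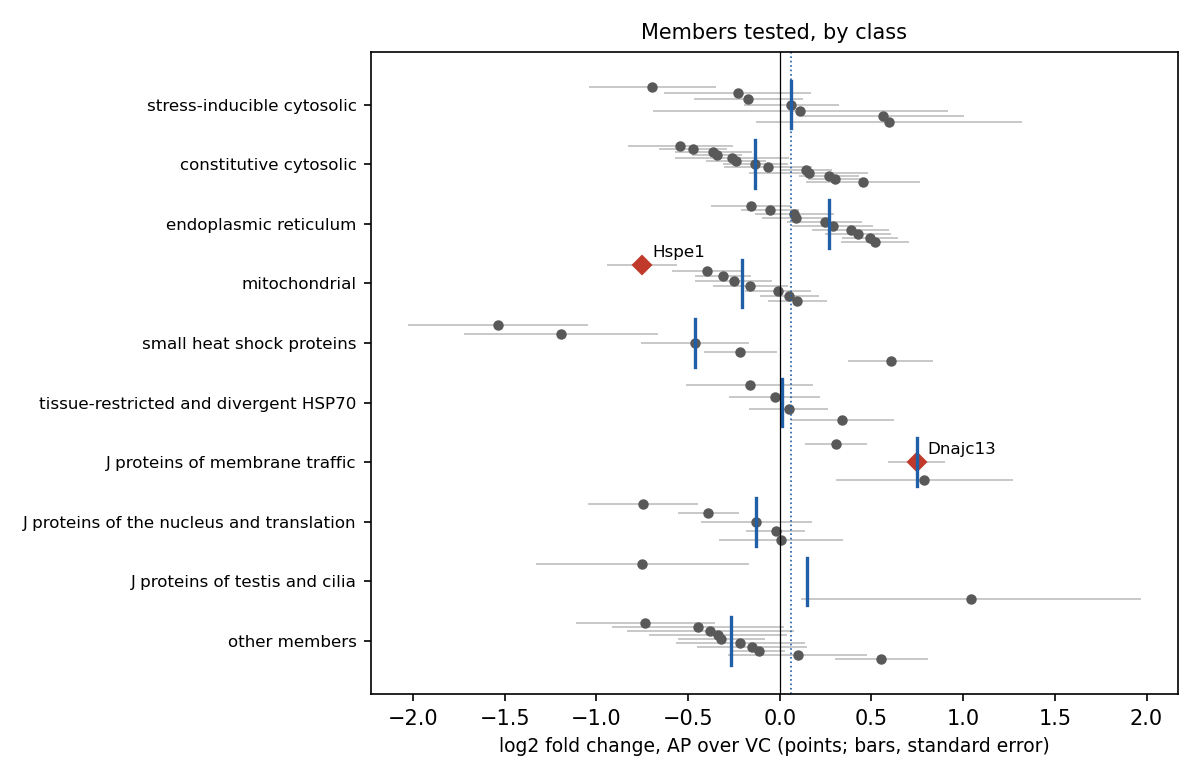
The log2 fold change (AP over VC) of each of the 67 members tested is plotted by class as a point with its standard error, with red diamonds for an adjusted p under 0.05, blue bars for class medians and a dotted line for the median of all genes tested (0.06). Class medians lie from -0.46 in the small heat shock proteins to 0.75 in the J proteins of membrane traffic, and Dnajc13 and Hspe1 are the genes marked. With total counts in place of the size factors, the median of all members is 0.81 and the small heat shock proteins stand at 0.40.

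RNA levels per kilobase of exon were highest for Hsp90ab1 in both groups. In the VC group the mean was 5541 normalized counts per kilobase for Hsp90ab1, 3408 for Hspa8, 2474 for Hspb1, 1881 for Hspe1 and 1169 for Hsp90aa1. In the AP group the same genes stood at 5289, 2418, 3722, 1124 and 1248 normalized counts per kilobase, so that Hspb1 passed Hspa8 in rank on this measure. The length used joins all annotated exons of a gene (4301 bases for Hspa8, 1031 for Hspb1) and is not that of a single transcript. Ranks between genes therefore depend on the annotation.

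The stress-inducible cytosolic chaperones spread widely within each group, with VC.3 and AP.2 above the other libraries of their groups in all but Hsp90aa1. The median log2 fold change over the 7 genes of this class was 0.06, with 4 above 0 and 3 below, and none passed the limma test (adjusted p from 0.197 to 0.941, and 0 at an unadjusted p under 0.05). With total counts the median was 0.93, and Hsp90aa1 (log2 fold change 0.93, limma adjusted p = 0.0161) and Dnajb1 (1.43, limma adjusted p = 0.0319) passed. Hspa1b, the main heat-inducible HSP70 gene with its neighbour Hspa1a, stood at 409, 1654, 4459.6 and 1224 normalized counts across the 4 VC libraries and 1353, 7918, 865 and 2084 across the 4 AP libraries. Hspa1a stood at 195, 448, 2295 and 399 normalized counts across the 4 VC libraries and 408, 2918, 230.2 and 396 across the 4 AP libraries. For both genes VC.3 and AP.2 were far above the other libraries of their groups, VC.1 was the lowest of all 8, and the groups overlapped. Hspa1a was 5.75-fold over the median of the other VC libraries in VC.3 and 7.36-fold over the median of the other AP libraries in AP.2, and the log2 fold change between groups was 0.11 (SE 0.80). These 2 genes lie side by side on chromosome 17 (GRCm38, Hspa1b from 34956436 to 34959238, Hspa1a from 34969190 to 34972156), and 58.8% of the 50-base words of the longest Hspa1a transcript also occur in Hspa1b, so how reads were divided between them is uncertain.

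Their partners followed the same libraries. Dnajb1, the J protein that works with inducible HSP70, stood at 311, 344, 1182 and 368 normalized counts across the 4 VC libraries and 376, 1342, 695 and 637 across the 4 AP libraries. Dnaja1, another cytosolic J protein, stood at 1695, 2112, 4154 and 1864 normalized counts across the 4 VC libraries and 1247, 2675, 884 and 1368 across the 4 AP libraries. Hsph1, an HSP110 protein that releases nucleotide from HSP70, stood at 1704, 2827, 3498 and 2546 normalized counts across the 4 VC libraries and 1949.5, 4300.0, 920.3 and 2947 across the 4 AP libraries. In all 3 genes VC.3 and AP.2 were again the highest of their groups and the groups overlapped, with log2 fold changes of 0.56 (SE 0.44), -0.69 (SE 0.35) and -0.23 (SE 0.40). The exception was Hsp90aa1, the inducible HSP90, which stood at 3259.8, 5645, 4741 and 4729 normalized counts across the 4 VC libraries and 4447, 5375, 3048 and 6753 across the 4 AP libraries. Its highest libraries were VC.2 and AP.4, with AP.4 above all VC libraries, AP.3 below them and AP.1 and AP.2 within them. It had a log2 fold change of 0.06 (SE 0.26). Counted after these 2 libraries had been picked out from the values of these genes, VC.3 and AP.2 were both the highest of their groups in 6 of the 7 stress-inducible genes (85.7%, all but Hsp90aa1 and with Dnaja4 among them) and in 1267 of the 15964 genes tested (7.94%). Likewise picked out from these values, VC.1 was the lowest VC library in 7 of the 7 and AP.3 the lowest AP library in 6 of the 7, against 32.8% and 24.1% of all genes tested. These low positions were not particular to this class. Over all 67 members VC.1 was lowest in 27 (40.3%) and AP.3 in 30 (44.8%). AP.3 was lowest in 5 of 5 small heat shock proteins, 6 of 8 mitochondrial, 6 of 10 endoplasmic reticulum and 5 of 13 constitutive members. Both comparisons with all genes tested describe values already seen. The median coefficient of variation within a group was 46.6% in VC and 53.9% in AP in this class, beside 13.1% and 15.8% in the constitutive cytosolic class, and of the other classes the widest in VC were the 2 J proteins of testis and cilia (76.6% and 16.8%) and the 10 remaining members (39.9% and 18.7%).

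**Figure D2:**
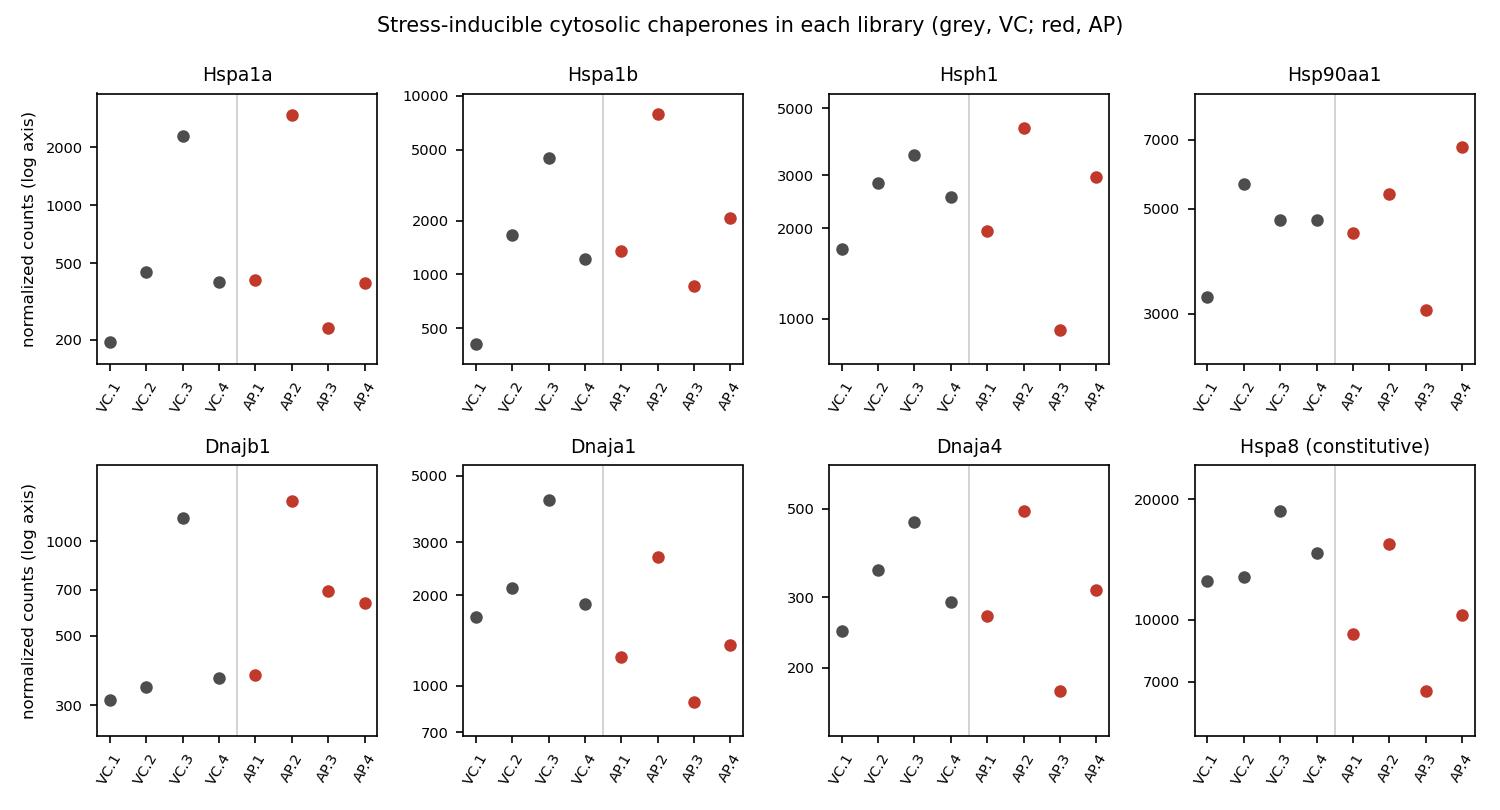
Normalized counts of the 7 stress-inducible cytosolic chaperones and of the constitutive Hspa8 are plotted on log axes for each of the 8 libraries, grey for VC and red for AP. VC.3 and AP.2 stand highest in their groups in every panel but that of Hsp90aa1, and the groups overlap in all 8 panels.

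Because 2 libraries carried this pattern, the groups were also compared without VC.3 and AP.2, a choice made after the values were seen. The median of the stress-inducible class was then 0.02, and 0 members were called in either direction, with log2 fold changes of 0.71 for Dnajc13 and -0.77 for Hspe1 (0.75 and -0.75 with all libraries), while the calls over all genes went from 1011 higher and 639 lower to 234 higher and 59 lower. Leaving out AP.2 alone gave a class median of -0.42, leaving out AP.3 alone gave 0.27, leaving out VC.1 alone gave -0.31, leaving out VC.4 alone gave -0.03 and leaving out AP.4 alone gave -0.11, so the sign of the median rested on single libraries.

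The same 2 libraries stood highest for some co-chaperones outside the family. Bag3, a co-chaperone that Hsf1 induces, stood at 517, 655, 1395 and 684 normalized counts across the 4 VC libraries and 669, 1135, 347 and 488 across the 4 AP libraries. Chordc1, an HSP90 co-chaperone, stood at 322, 504, 680.0 and 384 normalized counts across the 4 VC libraries and 309, 751, 303 and 451 across the 4 AP libraries. VC.3 and AP.2 were highest in both, while the factor itself, Hsf1, stood at 211, 229, 307 and 195 normalized counts across the 4 VC libraries and 242, 202, 221 and 224 across the 4 AP libraries, with VC.3 as the highest VC library but AP.2 as the lowest AP library. Across the 20 regulators and co-chaperones listed, VC.3 and AP.2 were both the highest in 3 (Bag2, Bag3 and Chordc1), beside 7.94% of all genes tested. The same held for 4 of 20 other genes of endoplasmic reticulum folding and the unfolded protein response (Atf4, Ddit3, Herpud1 and Pdia4), with Herpud1 2.19-fold over the median of the other VC libraries in VC.3 and 2.03-fold over that of the other AP libraries in AP.2. All 6 endothelial markers had their highest AP level in AP.2, and 2 (Pecam1 and Vwf) also their highest VC level in VC.3. Summed levels of the 6 were 991, 949, 1921 and 1693 normalized counts across the 4 VC libraries and 2822, 7070.3, 2322 and 2725 across the 4 AP libraries, with Vwf as the most abundant and none at 0. Among the 6, 2 were higher in AP at an adjusted p under 0.05, beside 6.33% of all genes tested. Of the 12 immediate early genes, which respond within minutes to injury and tissue handling, 11 were higher in AP at an adjusted p under 0.05 (6.33% of all genes tested). In this list 9 had their highest VC level in VC.3 (24.5% of all genes tested) and 0 their highest AP level in AP.2 (25.6% of all genes tested). Summed levels of the 12 were 3433, 3542, 4798 and 3488 normalized counts across the 4 VC libraries and 13968, 10982, 12871 and 9987 across the 4 AP libraries, with Jun as the most abundant and none at 0. The part of endothelial cells and of tissue handling in the stress-inducible pattern was not tested.

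The constitutive cytosolic chaperones include the 2 genes with the highest VC levels per kilobase, Hsp90ab1 and Hspa8. Over their 13 genes the median log2 fold change was -0.13 (0.73 with total counts), with 5 above 0 and 8 below (-0.06 without AP.1), and 0 were called by limma (adjusted p from 0.112 to 0.881). At an unadjusted p under 0.05, 0 were higher and 2 lower, beside 2720 and 2120 of the 15964 genes tested. Hsp90ab1, the constitutive HSP90, stood at 15448, 18454, 14453 and 18111 normalized counts across the 4 VC libraries and 15510.1, 15180.2, 14653 and 18098 across the 4 AP libraries. These levels overlapped throughout, with a log2 fold change of -0.06 (SE 0.24). Hspa8, the constitutive HSP70 that also uncoats clathrin vesicles, stood at 12508, 12817, 18656 and 14649.5 normalized counts across the 4 VC libraries and 9192, 15451, 6658 and 10294 across the 4 AP libraries. AP.1, AP.3 and AP.4 were below all VC libraries, but AP.2 was within them, and the log2 fold change of -0.54 (SE 0.29) did not pass (adjusted p = 0.226). Hspa4, an HSP110 relative that acts as an exchange factor, stood at 1066, 1292, 1185 and 1144 normalized counts across the 4 VC libraries and 1138, 1308, 1489.8 and 1767 across the 4 AP libraries, with overlapping groups.

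Among the less abundant constitutive members, 2 had the smallest p. Dnajc7, a J protein with tetratricopeptide repeats that binds both HSP70 and HSP90, stood at 684, 556, 643 and 572 normalized counts across the 4 VC libraries and 474, 463, 504 and 488 across the 4 AP libraries. All its AP libraries were below all VC libraries, by a small step that did not pass the test (log2 fold change -0.34, SE 0.14, adjusted p = 0.120). Dnajc2, which works with HSP70 at the ribosome, stood at 342, 300.0, 243 and 317 normalized counts across the 4 VC libraries and 209.6, 171, 240.2 and 245 across the 4 AP libraries, where AP.4 lay just above VC.3 and the groups were otherwise apart (log2 fold change -0.47, SE 0.18, adjusted p = 0.112). The other constitutive members had log2 fold changes from -0.36 in Dnajb2 to 0.45 in Hspa4l. Dnajb4 and Dnajb2 also had their highest levels in VC.3 and AP.2, Dnajb4 with 235, 159.6, 335 and 197 normalized counts across the 4 VC libraries and 199, 482, 174 and 228 across the 4 AP libraries.

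Among chaperones of the endoplasmic reticulum more genes were above 0 than below, and none passed the test. Their median log2 fold change was 0.27 over 10 genes, with 8 above 0 and 2 below, beside 8537 above and 7427 below among all genes tested. At an unadjusted p under 0.05, 3 were higher, beside 2720 of the 15964 genes tested, but 0 after adjustment (limma, adjusted p from 0.0603 to 0.848). The difference from all genes was not tested. The class list left out Dnajc14, a membrane J protein of the same compartment (log2 fold change -0.12), so the counts and the median depend on that list. With total counts the class median was 1.13, and Hspa5 and Hsp90b1 were among the members that passed (limma adjusted p = 0.00745 and 0.00215). The major chaperones of this compartment had levels that overlapped between the groups. Hspa5 (BiP), its HSP70, stood at 3433, 4419, 5095 and 4813 normalized counts across the 4 VC libraries and 4616, 5459, 3317 and 5542 across the 4 AP libraries, and the groups overlapped (log2 fold change 0.08, SE 0.22). Hsp90b1 (Grp94), its HSP90, stood at 3245, 3771, 3336 and 4258 normalized counts across the 4 VC libraries and 3903, 3167, 3708 and 4809 across the 4 AP libraries, with overlapping groups as well (log2 fold change 0.09, SE 0.18).

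The genes with the smallest p in this class were J proteins that serve Hspa5. Dnajc3 (p58IPK), which also binds the kinase Eif2ak2, stood at 529, 683, 670.4 and 643 normalized counts across the 4 VC libraries and 924, 929.6, 729.9 and 976 across the 4 AP libraries. All AP libraries were above all VC libraries, and the log2 fold change of 0.49 (SE 0.15) did not pass with limma (adjusted p = 0.0603) but did with DESeq2 on the recovered reads (adjusted p = 0.0227, and from 0.000847 to 0.155 over all alternatives). Dnajc1, a membrane J protein that touches the ribosome, stood at 160.1, 161, 201 and 238 normalized counts across the 4 VC libraries and 264, 290.1, 233 and 293 across the 4 AP libraries. Dnajc10, a J protein that also reduces disulfide bonds, stood at 329, 278, 213 and 306 normalized counts across the 4 VC libraries and 418, 384, 386 and 313 across the 4 AP libraries. In both, a single VC library reached the lower AP levels, VC.4 passing AP.3 in Dnajc1 and VC.1 passing AP.4 in Dnajc10, and the adjusted p was 0.0908 and 0.138. With VC.3 and AP.2 both left out, the median of the class was 0.16.

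Of 20 other genes of endoplasmic reticulum folding and the unfolded protein response, 1 was called higher and 1 lower, beside 6.33% and 4.0% of all genes tested, with a median log2 fold change of 0.05. Atf6, a membrane-bound sensor of the unfolded protein response, rose from 164, 157, 178 and 135 normalized counts across the 4 VC libraries to 244, 307, 347 and 255 across the 4 AP libraries (log2 fold change 0.86, SE 0.18, limma adjusted p = 0.0201). Ddit3, the transcription factor CHOP of the same response, fell from 269, 183, 321 and 311 normalized counts across the 4 VC libraries to 104, 164, 75.2 and 113 across the 4 AP libraries (log2 fold change -1.26, SE 0.27, limma adjusted p = 0.0191). For both genes all AP libraries lay on the same side of all VC libraries. Without AP.2, AP.3 or AP.4 the log2 fold change of Atf6 was 0.82, 0.76 and 0.91, and its call was lost (adjusted p = 0.0604, 0.0801 and 0.0501). That of Ddit3 was lost without AP.3 (-1.08, adjusted p = 0.0639), without AP.4 (-1.28, adjusted p = 0.0528), without the intensity trend (adjusted p = 0.0510) and with total counts (-0.40, adjusted p = 0.258). The most abundant of the list were Serpinh1, the collagen chaperone, with 6763, 5149, 6708 and 13194 normalized counts across the 4 VC libraries and 9092, 5968, 4575 and 4696 across the 4 AP libraries, and P4hb, a protein disulfide isomerase, with 4288, 4031, 3007 and 5681 normalized counts across the 4 VC libraries and 3789.6, 3657, 3281 and 3558 across the 4 AP libraries. Serpinh1 was highest in VC.4 and overlapped between groups, as did P4hb.

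The mitochondrial class held the only member called lower. The median log2 fold change over its 8 genes was -0.21 (0.66 with total counts), with 2 above 0 and 6 below. Hspe1 (Hsp10), the lid that closes the mitochondrial folding chamber, stood at 3327, 2987, 2309 and 2469 normalized counts across the 4 VC libraries and 1755, 1410.5, 1341 and 2119 across the 4 AP libraries. All 4 AP libraries were below all 4 VC libraries. The log2 fold change was -0.75 (SE 0.19, limma adjusted p = 0.0338). Without VC.1, VC.2, AP.2 or AP.3 the log2 fold change was -0.66, -0.71, -0.68 and -0.66, with adjusted p of 0.0730, 0.0615, 0.0940 and 0.110. Without the intensity trend the adjusted p was 0.0816, and under total counts the log2 fold change was 0.12 (adjusted p from 0.00541 to 0.580 over all alternatives). Hspe1 was called lower with total counts without mitochondrially encoded genes, with TMM and with upper-quartile factors.

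Hspd1 (Hsp60), which forms the chamber itself, was less clearly separated. It stood at 2590.3, 3075, 2828 and 2117 normalized counts across the 4 VC libraries and 1919.8, 2299.6, 1489 and 2413 across the 4 AP libraries. AP.1 and AP.3 were below all VC libraries, AP.2 and AP.4 were within them, and the log2 fold change of -0.40 (SE 0.19) did not pass (adjusted p = 0.189). The ratio of Hspe1 to Hspd1 normalized counts was 1.28, 0.971, 0.817 and 1.17 across the 4 VC libraries and 0.914, 0.613, 0.901 and 0.878 across the 4 AP libraries. On the log2 scale this ratio differed by -0.36 (AP minus VC), which did not pass a two-sided exact permutation test (p = 0.171, 0.381 adjusted over 5 ratios). With 4 libraries against 4 the smallest p this test can give is 0.0286, which is 0.143 after adjustment where only 1 of the 5 ratios reaches it, so these ratios are a description. Hspe1 and Hspd1 lie head to head on chromosome 1 (GRCm38, Hspd1 from 55077835 to 55088243 on the minus strand, Hspe1 from 55088132 to 55091307 on the plus strand) and their annotations overlap by 112 bases, where reads cannot be assigned unless strand was used in counting.

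Hspa9 (mortalin), the HSP70 that pulls proteins into the matrix, stood at 1563, 1890.1, 1486 and 1367 normalized counts across the 4 VC libraries and 1583, 1773, 1368 and 1805 across the 4 AP libraries. These levels overlapped (log2 fold change 0.05, SE 0.16). Dnajc19, a J protein of the import motor, stood at 338, 304, 359 and 323 normalized counts across the 4 VC libraries and 276, 277, 228 and 290.4 across the 4 AP libraries, with all AP libraries below all VC libraries by a step that did not pass (log2 fold change -0.31, adjusted p = 0.198). AP.3 was the lowest AP library in 6 of the 8 mitochondrial genes, beside 44.8% of all members and 24.1% of all genes tested. Of 8 other genes for mitochondrial folding and proteolysis, 1 was called lower (4.0% of all genes tested), with a median of 0.05. This was Clpp, the subunit of a matrix protease, which fell from 320.2, 344, 311 and 296 normalized counts across the 4 VC libraries to 176, 161, 159 and 192 across the 4 AP libraries (log2 fold change -0.88, SE 0.16, limma adjusted p = 0.0108), with all AP libraries below all VC libraries. With total counts its log2 fold change was -0.018 (adjusted p = 0.946). The most abundant of that list were Lonp1, another matrix protease, with 395, 525, 472 and 375 normalized counts across the 4 VC libraries and 499.7, 518, 518 and 486 across the 4 AP libraries, and Trap1, the mitochondrial HSP90, with 569, 551, 427 and 390.0 normalized counts across the 4 VC libraries and 455, 438, 423 and 448 across the 4 AP libraries, both with overlapping groups.

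The small heat shock proteins split in their direction. Of the 7 genes, 5 were tested, with a median log2 fold change of -0.46 (0.40 with total counts), 1 above 0 and 4 below. Without AP.3 this median was -0.29 and without AP.1 -0.63. Hspb1 (Hsp27), which is abundant in differentiating keratinocytes, stood at 1648, 2756, 3202 and 2597 normalized counts across the 4 VC libraries and 3809.9, 3936, 2816 and 4789 across the 4 AP libraries. AP.1, AP.2 and AP.4 were above all VC libraries and AP.3 was within them, and the log2 fold change of 0.60 (SE 0.23) did not pass (adjusted p = 0.109). Markers of suprabasal keratinocytes moved with the groups (10 of 12 called higher, 0 lower, beside 6.33% and 4.0% of all genes tested). Their summed levels were 6412, 13127, 9076 and 5903 normalized counts across the 4 VC libraries and 44029, 41856, 122726 and 172510.0 across the 4 AP libraries. Krt10 was the most abundant of them and none was at 0 in any library. Basal keratinocyte markers had 4 of 8 called higher (6.33% of all genes tested), with summed levels of 29989, 84352, 53778 and 25628 normalized counts across the 4 VC libraries and 58278, 57300.1, 106633 and 150219 across the 4 AP libraries, Krt14 as the most abundant and none at 0. The epidermis between the follicles had been removed before sequencing, and the part of keratinocytes in the level of Hspb1 was not tested.

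Hspb6 and Hspb7, both prominent in muscle, were low in 3 of the 4 AP libraries. Hspb6 (Hsp20) stood at 695, 581, 642 and 538 normalized counts across the 4 VC libraries and 738, 188, 87.2 and 159 across the 4 AP libraries. Hspb7 stood at 380.2, 176, 307 and 227 normalized counts across the 4 VC libraries and 402, 91.7, 45.8 and 97.99 across the 4 AP libraries. In both genes AP.1 was higher than any VC library and the other AP libraries were below all of them, so the groups overlapped through AP.1 alone. With all libraries the log2 fold change of Hspb6 was -1.54 (SE 0.49, adjusted p = 0.0645), that of Hspb7 was -1.19 (SE 0.53, adjusted p = 0.153), and neither passed. Without AP.1 they were -2.14 (limma adjusted p = 0.00176) and -1.80 (adjusted p = 0.0103), with adjusted p from 0.00176 to 0.248 and from 0.0103 to 0.592 over all alternatives.

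Skeletal muscle markers were low in the same libraries. The summed level of the 15 markers was 68657, 99197, 52778 and 53177 normalized counts across the 4 VC libraries and 97419, 13574, 7828 and 16501 across the 4 AP libraries, with Acta1 as the most abundant and none at 0. Their median log2 fold change was -1.74, 15 of 15 were below 0, and 1 (Tnnc2) was called lower, beside 4.0% of all genes tested. AP.1 again stood with the VC libraries and AP.2, AP.3 and AP.4 were far below. Cryab, a small heat shock protein of muscle and lens that is named outside the Hspb series, stood at 1091, 1343, 1378 and 1314 normalized counts across the 4 VC libraries and 1118, 613, 346 and 513 across the 4 AP libraries. It was called lower (log2 fold change -1.11, SE 0.29, limma adjusted p = 0.0349) though AP.1 lay within the VC range, and the call held in only 1 of 8 fits that left out a library, the fit without AP.1 (adjusted p = 0.00335, beside 0.0580 to 0.0935 in the other 7). It was also lost with edgeR (adjusted p = 0.0514), without the intensity trend (adjusted p = 0.0892) and with total counts (log2 fold change -0.24, adjusted p = 0.511). Hspb2, which overlaps Cryab by 1030 bases on the opposite strand, stood at 72.8, 87.2, 66.9 and 111 normalized counts across the 4 VC libraries and 84.9, 58.8, 41.4 and 62.2 across the 4 AP libraries, where again AP.1 was the highest AP library. The part of muscle tissue in these results was not tested.

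**Figure D3:**
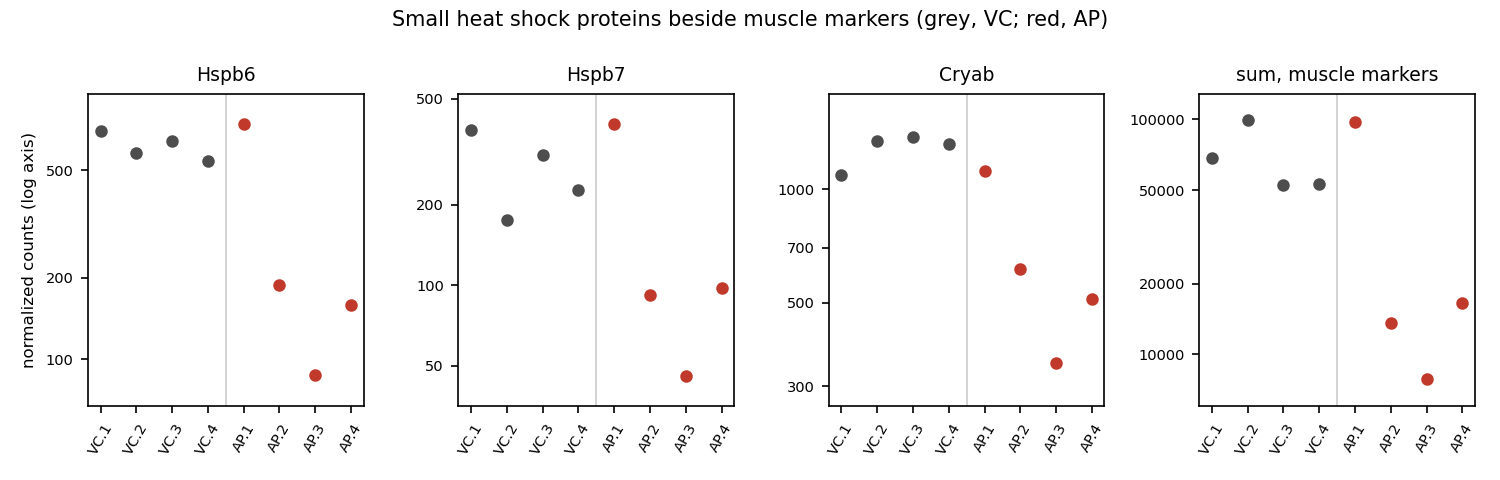
Normalized counts of Hspb6, Hspb7 and Cryab and the summed normalized counts of 15 skeletal muscle markers are plotted on log axes for each library, grey for VC and red for AP. In each panel AP.1 stands with the VC libraries and AP.2, AP.3 and AP.4 lie below all of them.

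Hspb8, the partner of Bag3 in disposing of damaged muscle proteins, stood at 1282, 809.8, 1260.3 and 1016 normalized counts across the 4 VC libraries and 1009.6, 1006, 675 and 1071 across the 4 AP libraries, with overlapping groups and a log2 fold change of -0.21 (SE 0.20). Hspb9 and Hspb3 were too low to test. Hspb9 had 0 reads in all 4 VC libraries and 6.53, 0.539, 1.49 and 2.15 normalized counts in AP.1 to AP.4, and the levels of AP.2, AP.3 and AP.4 were at or under the floor of 3 reads. Hspb3 had its highest level in VC.3, with 16.4 normalized counts, and 0 reads in VC.1, VC.4 and AP.2.

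Dnajc13 was the only member called higher. This J protein (RME-8) recruits HSP70 to endosomes and is needed for sorting of membrane cargo there. It stood at 213, 223, 238 and 248 normalized counts across the 4 VC libraries and 329, 432, 409.6 and 383 across the 4 AP libraries. All 4 AP libraries were above all 4 VC libraries, and the spread within each group was small beside the step between them. The log2 fold change was 0.75 (SE 0.16, limma adjusted p = 0.0182). Without AP.2, AP.3 or AP.4 it was 0.69, 0.72 and 0.75, with adjusted p of 0.0590, 0.0719 and 0.0553, within 0.000258 to 0.0813 over all alternatives. The gene lies on chromosome 9 (GRCm38, from 104151282 to 104262930, minus strand), where it overlaps Hmgb1-rs16 by 613 bases on the same strand, and reads there may belong to either.

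The other 2 J proteins of membrane traffic were not called. Dnajc5 (cysteine string protein), which guards vesicle fusion proteins, stood at 417, 600.0, 489 and 561 normalized counts across the 4 VC libraries and 542, 738, 587 and 684 across the 4 AP libraries, with overlapping groups (log2 fold change 0.31, SE 0.17). Dnajc6 (auxilin), which recruits Hspa8 to clathrin coats, was near the floor in some VC libraries. It stood at 7.28, 11.8, 20.5 and 11.3 normalized counts across the 4 VC libraries and 23.9, 13.5, 35.4 and 17.9 across the 4 AP libraries. Its log2 fold change of 0.79 had an SE of 0.48.

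The J proteins of the nucleus and of translation (5 genes) had a median of -0.13 (0.74 with total counts), with 1 above 0 and 4 below. It ranged from -0.32 without VC.1 to -0.07 without AP.2. Dnajc9, a histone chaperone, stood at 440.2, 361, 370.0 and 354 normalized counts across the 4 VC libraries and 254, 271, 283 and 361 across the 4 AP libraries. Only AP.4 reached the VC range, and the gene did not pass (log2 fold change -0.39, SE 0.17, adjusted p = 0.138). Dnajc17, which is linked to splicing, stood at 83.7, 90.1, 99.7 and 82.5 normalized counts across the 4 VC libraries and 66.7, 30.2, 57.3 and 65.8 across the 4 AP libraries, with all AP libraries below all VC libraries and AP.2 lowest (log2 fold change -0.74, SE 0.30, adjusted p = 0.122). Dnajc8, a component found with spliceosomes, stood at 331, 426, 345 and 401 normalized counts across the 4 VC libraries and 368, 302, 402 and 409.8 across the 4 AP libraries. Dnajc21, which takes part in ribosome assembly, stood at 113, 338, 270.4 and 229 normalized counts across the 4 VC libraries and 197, 177, 182 and 259.6 across the 4 AP libraries. Both overlapped between the groups, with AP.2 lowest of all libraries in Dnajc8 and VC.1 in Dnajc21.

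Tissue-restricted and divergent HSP70 genes had a median of 0.01 over 4 genes (from -0.07 without AP.2 to 0.12 without AP.4), and 0 were called (0 at an unadjusted p under 0.05). Hspa12b, which is known from endothelial cells, stood at 193, 152, 113 and 133 normalized counts across the 4 VC libraries and 249, 256, 151 and 119 across the 4 AP libraries. AP.1 and AP.2 were above all VC libraries, and AP.3 and AP.4 were within them. Hspa12a stood at 104, 143, 152 and 118 normalized counts across the 4 VC libraries and 116, 159.6, 141 and 117 across the 4 AP libraries. Hspa2, best known from testis, stood at 102, 81.3, 95.6 and 82.5 normalized counts across the 4 VC libraries and 107, 104, 87.7 and 62.2 across the 4 AP libraries. Both had overlapping groups. The 2 J proteins of testis and cilia had a median of 0.15, from -0.63 without VC.1 to 0.55 without VC.4. With all libraries kept it was -0.44 with edgeR, -0.43 with DESeq2 and -0.07 with a pseudocount of 5, but 0.26 with a pseudocount of 0.5 and 0.89 with total counts. Dnajb3 stood at 10.9, 72.4, 15.02 and 52.5 normalized counts across the 4 VC libraries and 15.2, 16.7, 16.9 and 17.2 across the 4 AP libraries. All 1051 bases of Dnajb3 lie within Gm20528 on the same strand and within several Ugt1a genes on the opposite strand, so its reads may belong to other genes. Dnajb13, a protein of sperm tails and cilia, stood at 0, 17.7, 19.1 and 30.00 normalized counts across the 4 VC libraries and 21.8, 18.3, 28.9 and 15.02 across the 4 AP libraries. VC.1 was lowest in both, at 0 reads for Dnajb13, and the VC libraries spanned the AP levels of both genes.

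The 10 remaining members had a median of -0.27 (0.59 with total counts), with 2 above 0 and 8 below (-0.10 without VC.1 and -0.18 without VC.4), and none was called (limma adjusted p from 0.167 to 0.884, and 0 at an unadjusted p under 0.05). The most abundant was Dnajc14, with 688, 566, 617 and 643 normalized counts across the 4 VC libraries and 508, 551, 591 and 676 across the 4 AP libraries. Dnajc14 is a membrane J protein of the endoplasmic reticulum, but the class list of that compartment did not include it (log2 fold change -0.12, SE 0.15). Dnajc16 stood at 96.4, 133, 111 and 63.8 normalized counts across the 4 VC libraries and 131, 149.9, 169 and 127 across the 4 AP libraries and had the highest log2 fold change of these 10 (0.55, SE 0.25). Dnajc4 stood at 202, 112, 116 and 126 normalized counts across the 4 VC libraries and 117, 120.2, 101 and 95.8 across the 4 AP libraries, where VC.1 was the highest of all 8 libraries and the rest overlapped.

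Co-chaperones and regulators of the heat shock response had a median log2 fold change of -0.24 over 20 genes, with 5 above 0. By limma 3 were called lower (Bag1, Stub1 and Cryab) and 0 higher, beside 4.0% and 6.33% of all genes tested. Stub1 (CHIP), a ubiquitin ligase that marks chaperone-bound proteins for degradation, fell from 1423, 1096, 1178 and 1179 normalized counts across the 4 VC libraries to 748, 615, 649 and 712 across the 4 AP libraries (log2 fold change -0.84, SE 0.14, adjusted p = 0.0103). Bag1, a nucleotide exchange factor of HSP70 that links it to the proteasome, fell from 2772, 2056, 1703 and 2409 normalized counts across the 4 VC libraries to 1527, 1315, 1136 and 1653 across the 4 AP libraries (log2 fold change -0.66, SE 0.19, adjusted p = 0.0483). For both genes all AP libraries were below all VC libraries. Stub1 was called in 8 of 8 fits that left out a library, and Bag1 in 1 of 8, the fit without VC.3 (adjusted p = 0.0354, beside 0.0532 to 0.147 in the other 7), and under total counts the log2 fold changes of Stub1 and Bag1 were 0.034 and 0.21. Over those 8 fits the log2 fold change of Bag1 ran from -0.78 to -0.55. Bag1 was not called without the filter on low values, without the intensity trend or with edgeR either (adjusted p = 0.0529, 0.102 and 0.0535), with log2 fold changes of -0.66, -0.66 and -0.67 in that order. With VC.3 and AP.2 both left out, Stub1, Bag1, Cryab, Atf6, Ddit3 and Clpp all missed the threshold (adjusted p from 0.0509 to 0.124), with log2 fold changes of -0.80, -0.75, -1.09, 0.88, -1.36 and -0.86 in that order. The most abundant of the list was Fkbp4, an HSP90 co-chaperone, with 2439, 2806, 3009 and 2081 normalized counts across the 4 VC libraries and 2164, 2250.0, 1810.1 and 2568 across the 4 AP libraries and overlapping groups. Next came Stip1, which hands clients from HSP70 to HSP90, with 1752, 2231, 2548 and 1928 normalized counts across the 4 VC libraries and 1709, 1989.6, 1248 and 2214 across the 4 AP libraries, also overlapping. Ahsa1, which speeds the ATPase of HSP90, stood at 1433, 1475, 1648 and 1472 normalized counts across the 4 VC libraries and 1069, 1188, 818 and 1273 across the 4 AP libraries, with all AP libraries below all VC libraries and an adjusted p of 0.0733.

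Ratios between paired chaperones were compared because a change shared by all chaperones would cancel in them. The ratio of Hspa1b to Hspa8, inducible to constitutive HSP70, was 0.0327, 0.129, 0.239 and 0.0836 across the 4 VC libraries and 0.147, 0.512, 0.130 and 0.202 across the 4 AP libraries. AP.2 and VC.3 were highest in their groups, and the log2 difference of 1.14 did not pass (two-sided exact permutation test, p = 0.229, 0.381 adjusted over 5 ratios). The ratio of Hsp90aa1 to Hsp90ab1, inducible to constitutive HSP90, was 0.211, 0.306, 0.328 and 0.261 across the 4 VC libraries and 0.287, 0.354, 0.208 and 0.373 across the 4 AP libraries, and its log2 difference of 0.13 did not pass either (exact permutation p = 0.6). The ratios of Hsph1 to Hspa4 and of Hspa1a to Hspa1b differed by -0.50 and -0.49 on the log2 scale, with exact permutation p of 0.457 and 0.171.

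Promoters were searched for the binding elements of the heat shock and unfolded protein responses. RefSeq windows (GRCm38.p6) of 250 bases before to 50 after the start were found for 57 of the 69 members, as 74 windows. The heat shock element was searched as 3 alternating units, GAANNTTCNNGAA or TTCNNGAANNTTC, on both strands, and matches may overlap. It occurred in 4 of the 57 members (7.02%), namely Hsph1, Dnajb6, Hspd1 and Hspe1, and in 179 of 27025 genes with a window (0.662%). The windows of Hspd1 and Hspe1 hold the same stretch with 2 overlapping matches, which lies in a GENCODE exon of Hspd1 and 89 bases before the RefSeq start of Hspe1. It is shown from both strands because both genes hold it while Hspe1 was called and Hspd1 was not, with the element in capitals.
Hspe1, chr1:55088054-55088081, plus strand: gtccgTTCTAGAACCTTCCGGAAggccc
Hspd1, chr1:55088054-55088081, minus strand: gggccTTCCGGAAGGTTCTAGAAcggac
In Hsph1 the match begins 15 and 36 bases after its 2 RefSeq starts. The windows of Hspa1a, Hspa1b, Dnajb1, Dnaja1 and Dnaja4 held no match to these letters, although shorter or imperfect forms of the element were not searched.

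The endoplasmic reticulum stress element was searched as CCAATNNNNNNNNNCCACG and its reverse complement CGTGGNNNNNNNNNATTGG. It occurred in 3 of the 57 members (5.26%), Hspa5, Hsp90b1 and Dnajc3, which all belong to the class of the endoplasmic reticulum, and in 37 of 27025 genes (0.137%). They are shown because Dnajc3 was separated between the groups while Hspa5 and Hsp90b1 overlapped with a like element. Capitals mark the element, the site of Hspa5 lies in an annotated exon of that gene, and those of Hsp90b1 and Dnajc3 lie outside any annotated exon.
Dnajc3, chr14:118937812-118937860, plus strand: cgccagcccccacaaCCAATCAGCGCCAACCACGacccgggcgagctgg
Hspa5, chr2:34772020-34772048, plus strand: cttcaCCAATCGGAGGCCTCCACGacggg
Hsp90b1, chr10:86705623-86705671, minus strand: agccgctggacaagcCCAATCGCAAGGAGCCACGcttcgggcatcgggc
Hsp90b1, chr10:86705518-86705566, minus strand: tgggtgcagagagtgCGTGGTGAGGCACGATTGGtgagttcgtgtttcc
A match describes the letters of a window and shows no binding in these samples.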

How the data were processed

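The deposited table holds a signal per gene and library for 18770 genes, namely read counts that the authors divided by 1 DESeq2 size factor per library. Reads were aligned to mm10 with STAR, and the counter is featureCounts in the study's methods but HTSeq in the submitters' processing notes. Columns with the authors' own comparison were not used. All 150160 values were whole multiples of 1 step per library (100% within 0.02 reads), so reads were recovered. Whether counting used strand is not given in the sources used here.

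The main comparison was limma 3.58.1 (R 4.3.3) with an intensity trend on log2(value + 1), over the 15964 genes that reached 3 normalized counts in 4 or more of 8 libraries, with Benjamini-Hochberg adjustment and a call at an adjusted p under 0.05. edgeR 4.0.16 (1003 genes higher, 712 lower), limma-voom and DESeq2 1.42.0 (1677 higher, 1362 lower) were run on the recovered reads, and other scalings, pseudocounts, filters, the study's thresholds (fold over 1.5 at p under 0.01, unadjusted), applied here to the limma fit and not to DESeq2, and each library left out in turn were tried. Ratios were compared with a two-sided exact permutation test on the log2 scale. Its p-value is the share of all assignments of these libraries to the groups with a mean difference at least as large as that seen.

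Members, classes and marker lists were chosen with earlier results of these data known. Dnajc5b, Dnajc5g, Dnajb7 and Dnajb8 of the class lists are not among the genes listed. Members with an adjusted p under 0.05 and the 3 most abundant of each class were to be named with every library's value, together with partners with an adjusted p under 0.05 and the 2 most abundant of each partner list. All other genes named were chosen after their values were seen. Summed fibroblast markers (8 genes, 0 called) were 121488, 81981, 83539.8 and 223757 normalized counts across the 4 VC libraries and 255099, 189578, 136652 and 98434 across the 4 AP libraries, and leukocyte markers (7 genes, 0 called) 2225, 1364, 1401 and 3414 normalized counts across the 4 VC libraries and 1848, 1588, 1283 and 1280.3 across the 4 AP libraries. Positions and exon lengths are from GENCODE vM21 and promoters from RefSeq.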

Additional observations from a re-analysis of the deposited data

Results flagged for a closer look

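Each of the 67 members tested was examined in both groups, 134 sets of 4 libraries in all, for a library far from the rest (its gap to the nearest library against the range of the group). Of the 134 sets 11 stood out, where chance gives about 1 in 20. No share over all genes tested is given beside this count, so the 11 are a description. In VC.3 these were Hspa1a at 2295 normalized counts, Dnajb1 at 1182, Dnaja1 at 4154 and Hspa1l, a testis HSP70 beside Hspa1a on chromosome 17, at 42.3, all above the other VC libraries. In AP.2 it was Hspa1a at 2918 normalized counts, above the other AP libraries. In AP.1 they were Hspb6 at 738, Hspb7 at 402 and Dnajc25 at 121 normalized counts, all above the other AP libraries. Single genes stood out in AP.3 (Hspb8, low at 675 normalized counts), in VC.1 (Dnajc4, high at 202) and in VC.4 (Dnajc11, low at 255).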

How the results depend on the processing

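The 1 higher and 1 lower members and the 1011 higher and 639 lower genes depended on setting and library. With total counts 8657 genes were higher and 70 lower (members 38 and 0), with total counts without the mitochondrially encoded genes 957 and 540 (members 1 and 1), without the intensity trend 376 and 216 (members 1 and 0), with DESeq2 1677 and 1362 (members 2 and 1), and without VC.3 and AP.2, chosen after seeing the data, 234 and 59 (members 0 and 0). With the thresholds of the study applied to the limma fit, 1319 genes were higher and 850 lower (members 1 and 2). Leaving out 1 library at a time gave 209 to 1082 higher and 94 to 817 lower genes, lowest without AP.3, and 0 to 1 higher and 0 to 3 lower members, with 0 and 0 without AP.2 or AP.3 and 3 lower without AP.1. Those fits keep fewer samples. Total counts shifted the median of all genes by 0.84, and by 0.039 without the mitochondrially encoded genes, so that shift came with the mitochondrial reads. The causes of the other shifts were not tested. No paired analysis was possible because the groups share no replicate numbers.

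Total counts moved the class medians to 0.81 (all members), 0.93 (stress-inducible), 0.73 (constitutive), 1.13 (endoplasmic reticulum), 0.66 (mitochondrial), 0.40 (small heat shock proteins), 0.87 (tissue-restricted HSP70), 1.59 (membrane traffic), 0.74 (nucleus and translation), 0.89 (testis and cilia) and 0.59 (others), and 36 of the 38 members below 0 turned above it. In 14 members this passed an adjusted p under 0.05 or ended a call, as in Bag1 and Stub1. These 16 were Dnajc7 0.53, Hsp90ab1 0.81, Hspa14 0.73, Hspbp1 0.63, Dnajb11 0.82, Dnajb14 0.71, Dnajc11 0.86, Dnajc15 0.71, Dnajc19 0.56, Hspe1 0.12, Hspb8 0.66, Hspa2 0.83, Dnajc8 0.85, Dnajc14 0.75, Bag1 0.21 and Stub1 0.034 (log2 fold changes). Leaving out 1 library gave class medians from -0.634 to 0.553 for the testis and cilia class, from -0.328 to -0.099 for the others, from -0.167 to -0.062 for the constitutive class, from -0.626 to -0.286 for small heat shock proteins, from -0.074 to 0.123 for tissue-restricted HSP70, from -0.320 to -0.068 for the nucleus and translation class and from -0.421 to 0.273 for the stress-inducible class. Without VC.3 and AP.2 the median of the endoplasmic reticulum class was 0.16. Depth limits Dnajc6, Dnajb13, Hspb3 and Hspb9, which lie near the floor of 3 reads in some libraries.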
